A study of Mus musculus with 2148 samples.

Results

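The serpins were described as the 61 protein-coding genes of 48437 annotated mouse genes whose symbol starts with Serpin. They were read by RamDA-seq, in which the whole length of the RNA of single cells is captured, in thymic epithelial cells (TECs) of C57BL/6 mice and of Aire-deficient mice on that background. Cells were sorted as DAPI-CD45-EpCAM+ and split into cortical TECs (cTECs, Ly51+) and medullary TECs (mTECs, Ly51-), the latter with high (mTEChi) or low (mTEClo) surface MHC class II. The 8 groups were newborn cTECs (7.02% of all cells), adult cTECs (3.89%, 77 cells), newborn mTEClo (6.26%), adult WT mTEClo (18.0%), Aire-KO mTEClo (7.78%), newborn mTEChi (8.64%), adult WT mTEChi (31.3%, 620 cells) and Aire-KO mTEChi (17.1%). Newborn mice were WT, 1 day old and of no stated sex. Adult cTECs came from male mice of 6 weeks, adult WT mTEClo from males of 4, 5 and 8 weeks, adult WT mTEChi from females of 4 weeks and males of 4, 5 and 6 weeks, and both Aire-KO groups from males of 5 weeks.

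The cells formed 13 pools, each holding the cells of 1 group with the same age and sex labels, and 26 experimental batches. Mice were not numbered, so that p-values measured the spread between pools or batches and not between animals. Levels were counts per 1000000 reads on genes (CPM) of summed cells, in which fewer expressing cells and less RNA per cell cannot be told apart. Differences are given as log2 fold changes (log2FC). A difference was called where it was at least 2-fold with an adjusted p under 0.05 in edgeR's quasi-likelihood test, adjusted after Benjamini-Hochberg over all genes tested. Detection meant 5 or more reads of a gene in a cell.

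Each cell held 203010 to 1823784 reads on 8168 to 18454 genes. Aire, the targeted gene, was read at 1467 ± 404.7 CPM (SD, n = 4 pools) in adult WT mTEChi, 26.1 CPM in Aire-KO mTEChi and 0.153 CPM in Aire-KO mTEClo. The 6 cTEC markers summed to 5706 and 6213 CPM in the cTEC pools, 2199 CPM in newborn mTEClo and 175.7 to 996 CPM elsewhere. The WT mTEChi pool of 5 weeks held only 12 cells and, although labelled male, had 169.2 CPM of Xist beside 32.7 CPM of the Y-linked Ddx3y. Calls that rested on WT mTEChi pools are therefore also given without it.

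Serpins are proteins of 1 common fold that mostly inhibit serine proteases by a suicide mechanism: the target cuts an exposed loop, the serpin snaps shut and the protease is trapped. Some inhibit cysteine cathepsins or caspases, and some have lost inhibition and serve as hormone carriers or chaperones. Clade A holds the secreted, liver-type serpins such as the alpha-1-antitrypsins (Serpina1) and antichymotrypsin-like proteins (Serpina3). Clade B serpins mostly stay inside the cell and guard it against granzymes, cathepsins and neutrophil proteases. In the thymus, mTECs express many genes that are otherwise restricted to single tissues, for the tolerance of T cells, and Aire is the best known regulator of that expression.

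The family held 24 members of clade A, 26 of clade B and 11 of clades C to I. Most lay in clusters of neighbours less than 500 kb apart: 23 members on chromosome 12 (GRCm38, 103614786 to 104414329), 15 on chromosome 13 (32842092 to 34002794) and 11 on chromosome 1 (106861173 to 107610484). Pairs lay on chromosome 11 (Serpinf1 and Serpinf2) and chromosome 3 (Serpini1 and Serpini2), and 8 members stood outside clusters. Near-identical copies were a limit of counting: 12 members shared over 25% of the 50-base windows of their transcripts with other genes, up to 79.3% in Serpina1c. Exons of 12 members overlapped another gene, and for 5 of these, among them Serpinc1 with Zbtb37 and Serpinb6a with Nqo2, the other gene lay on the opposite strand, which counting without strand cannot separate.

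The start sites of members described further down as read in pairs in single adult WT mTEChi cells are shown with those of a member read in nearly all cells of mTEChi (Serpinb9) and one highest outside mTEChi (Serpinh1). Each sequence runs 5′ to 3′ on the strand of the gene from 60 bases before to 30 bases after the start, taken from RefSeq on GRCm38.p6, and capitals mark TATAAA on either strand, the core of a TATA box. In Serpina3a a forward and a reverse match overlap, and the match in Serpinb3d is on the reverse strand.
Serpinb3a, chr1:107052274-107052363, minus strand: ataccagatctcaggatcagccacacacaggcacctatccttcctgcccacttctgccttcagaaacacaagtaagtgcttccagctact
Serpinb3d, chr1:107083451-107083540, minus strand: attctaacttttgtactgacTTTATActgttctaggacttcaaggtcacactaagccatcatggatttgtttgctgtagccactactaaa
Serpina16, chr12:103676733-103676822, minus strand: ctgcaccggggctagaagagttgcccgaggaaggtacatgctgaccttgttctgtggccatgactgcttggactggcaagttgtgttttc
Serpina1f, chr12:103695500-103695589, minus strand: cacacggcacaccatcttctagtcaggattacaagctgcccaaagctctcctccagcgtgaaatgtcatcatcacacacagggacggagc
Serpina5, chr12:104101053-104101142, plus strand: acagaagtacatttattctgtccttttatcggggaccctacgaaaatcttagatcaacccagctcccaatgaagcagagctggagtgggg
Serpina3a, chr12:104112664-104112753, plus strand: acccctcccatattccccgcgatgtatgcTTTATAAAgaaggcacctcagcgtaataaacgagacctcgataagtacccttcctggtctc
Serpina3b, chr12:104127936-104128025, plus strand: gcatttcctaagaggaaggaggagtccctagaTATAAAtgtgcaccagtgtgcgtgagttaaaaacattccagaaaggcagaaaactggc
Serpina3c, chr12:104153843-104153932, minus strand: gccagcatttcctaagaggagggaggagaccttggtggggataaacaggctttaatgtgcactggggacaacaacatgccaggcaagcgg
Serpinb9, chr13:33004481-33004570, plus strand: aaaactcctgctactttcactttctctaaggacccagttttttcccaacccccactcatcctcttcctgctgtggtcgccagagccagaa
Serpinh1, chr7:99353210-99353299, minus strand: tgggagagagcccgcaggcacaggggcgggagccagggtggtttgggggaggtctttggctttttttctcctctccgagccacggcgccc

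RefSeq gave 61 start sites for 52 of the 61 members. TATAAA lay on either strand within 250 bases before to 50 bases after the start in 29.5% of the members' starts and in 13.6% of all 32851 starts. Between -50 and -16 on the gene's own strand it lay in 11.5% of the members' starts and in 2.32% of all. Of the members read in few cells, defined further down, 5 of 19 starts held it there, against 0 of 9 starts of the members read broadly. The 19 starts belong to 15 genes. Among the 5, those of Serpinb3b and Serpinb3c hold the motif in the same stretch of bases, so that these starts are not independent.

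The serpins took the most reads in mTEChi. Summed over the family they reached 1822 ± 131.9 CPM (SD, n = 4 pools, 1713 to 1993) in adult WT mTEChi and 977 ± 197.1 CPM (n = 3 pools, 834 to 1202) in adult WT mTEClo. Newborn mTEChi held 1604 CPM and newborn mTEClo 983 CPM. Without Aire the sum was 1318 CPM in mTEChi and 980.0 CPM in mTEClo, and in cTECs it was 863 CPM in newborn and 1195 CPM in adult mice. A member was at its highest group level in newborn mTEChi for 26 members and in adult WT mTEChi for 16, whereas adult cTEC was the highest group for 8, Aire-KO mTEChi for 4, Aire-KO mTEClo for 3, and adult and newborn mTEClo for 2 each. The detected members per cell had a median of 12 in newborn mTEChi, 11 in adult WT mTEChi and 8 to 10 in the other 6 groups. After thinning each cell to 200000 reads the medians were 9, 8 and 6 to 7. Low levels were common in the family: 10 members, 3 of them Serpina1 copies, stayed below 1 CPM in every group, yet each of the 61 was detected in at least 1 cell.

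**Figure D1:**
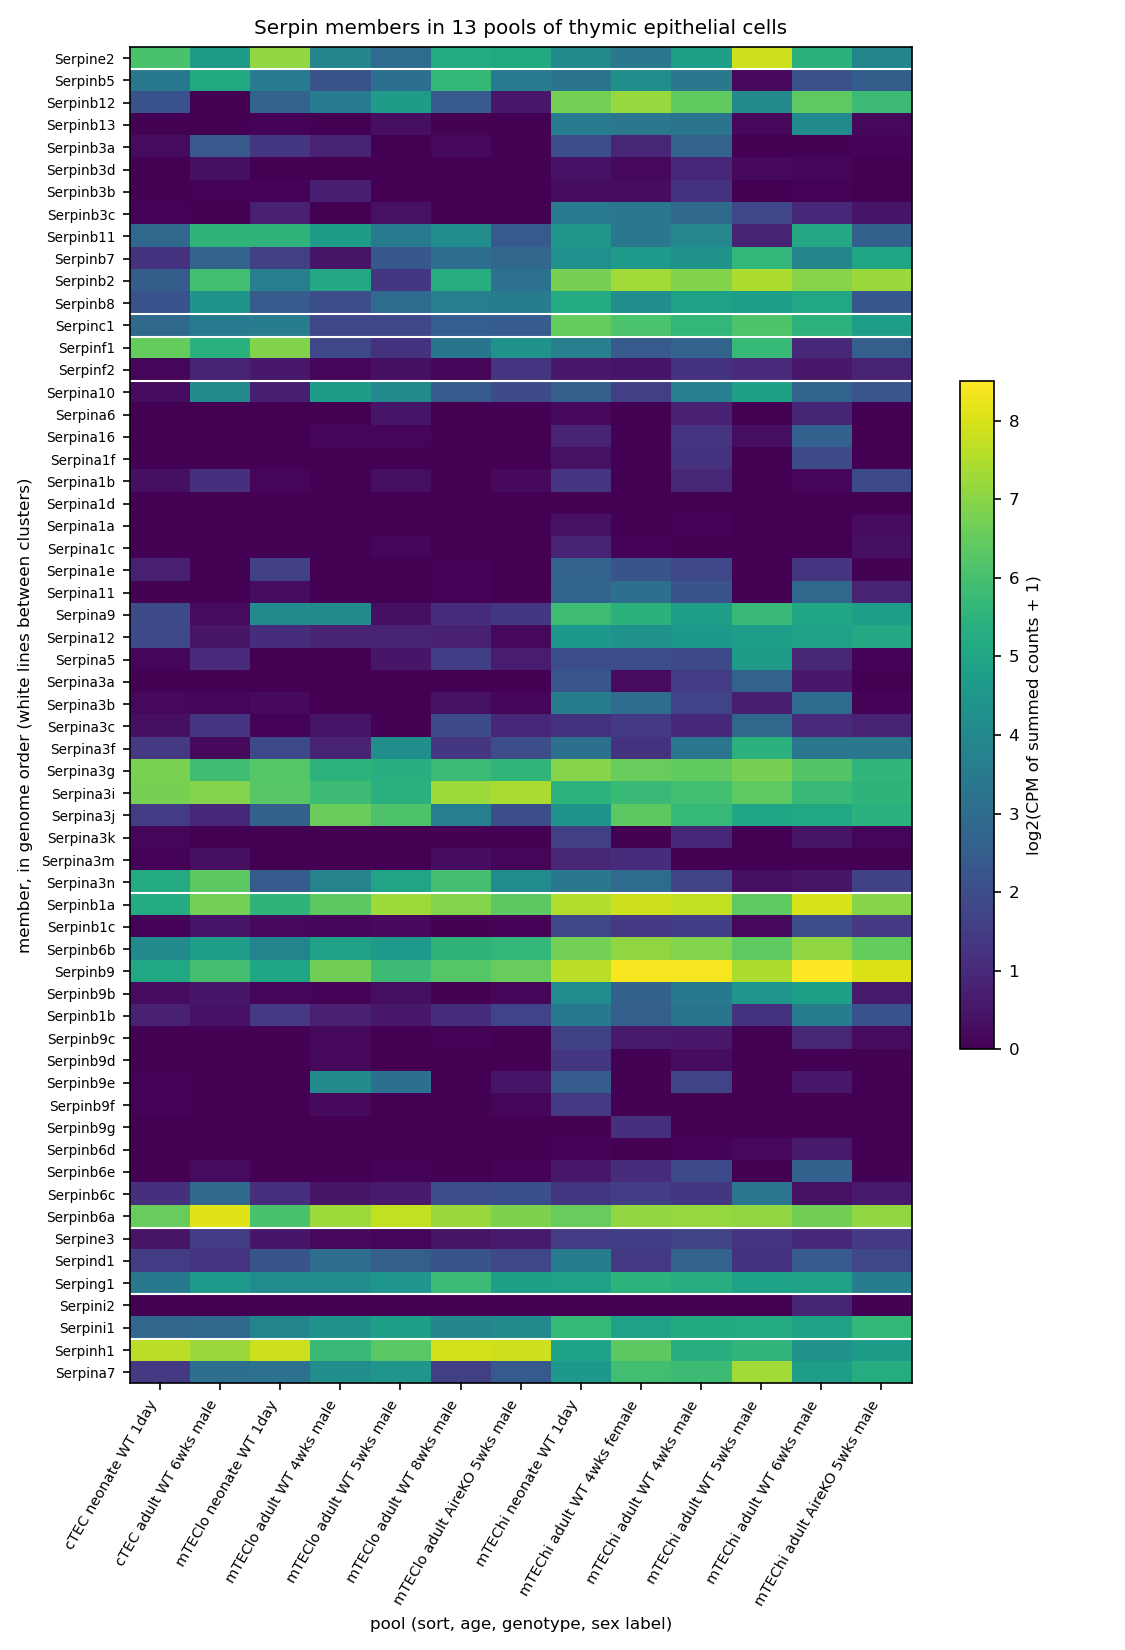
Levels of 60 serpins (rows, by genomic position) in the 13 pools (columns) as log2(CPM + 1) of summed cells. The mTEChi columns are brighter (higher) for a block of clade A and B members that is dark in most cTEC and mTEClo columns, while Serpinh1, from 19.6 CPM to 242.7 CPM, is brighter in most columns outside mTEChi.

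The broad members, detected in at least 10% of the cells of each of the 8 groups, numbered 10: Serpinb6a, Serpinb9, Serpina3g, Serpina3i, Serpinh1, Serpinb1a, Serpinb6b, Serpini1, Serpine2 and Serping1. Serpinb6a, an intracellular inhibitor of cathepsin G-type proteases, was detected in 88.3 to 100% of the cells of a group, and Serpinb9, which blocks granzyme B, in 78.6 to 96.3%. Serping1, the C1 inhibitor of complement and kallikrein, was the sparsest broad member with 12.1 to 36.8%, and Serpinc1, at 9.52% in adult WT mTEClo, fell just outside the class. Detection varied most in Serpinh1, the collagen chaperone HSP47 of the endoplasmic reticulum, at 33.4 to 98.6% of cells.

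Per kb of exon, the leading members differed by sort. Adult cTECs were led by Serpinh1 (61.4 CPM per kb), Serpina3i (54.3), Serpinb6a (50.0), Serpinb1a (45.9) and Serpina3n (39.6). Adult WT mTEClo were led by Serpinh1 (51.2 CPM per kb), Serpinb1a (51.1), Serpina3i (37.5), Serpinb6a (31.6) and Serpina3j (26.8). In adult WT mTEChi the leaders were Serpinb9 (85.9 CPM per kb), Serpinb1a (84.3), Serpinb2 (60.9), Serpinb6b (52.7) and Serpina3g (42.5), 4 of them intracellular clade B serpins and Serpina3g an intracellular cathepsin inhibitor of clade A.

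The comparison of adult WT mTEChi with mTEClo sets the sorts with high and low surface MHC class II side by side. The 6 tuft markers summed to 3860, 3240 and 254.2 CPM in mTEClo of 4, 5 and 8 weeks. In the mTEChi pools they summed to 31.8 to 283.3 CPM. The markers of immature mTECs summed to 876.7, 1211 and 3782 CPM in these mTEClo pools and 676.6 to 880.5 CPM in mTEChi. The part of such cells in the differences below was not tested. Of 61 members 60 passed the filter on low counts, and 10 were called, all higher in mTEChi, where 7.54% of all genes tested were called higher and 4.13% lower. By unadjusted p under 0.05 there were 32 of the 60 members and 13811 of 39971 genes tested. DESeq2 called 26 members, and edgeR with experimental batches as units called 28. No adult batch held both sorts, so that sort and batch cannot be told apart, and only mTEClo held cells of 8 weeks. The shares of all genes printed here and below belong to the edgeR calls beside them. They do not apply to counts by unadjusted p, DESeq2 or other units. The median log2FC of the members tested was 2.22 (1.99 with the 7 members at up to 3 reads in 1 group set to their bound or ratio), against 0.30 over all genes tested.

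The intracellular granzyme B inhibitor Serpinb9 (ENSMUSG00000045827, chromosome 13, 33003250 to 33017957) was read at 330.8, 333.4, 174.96 and 362.02 CPM in the mTEChi pools of 4-week females and of males of 4, 5 and 6 weeks. In mTEClo of 4, 5 and 8 weeks it was read at 99.6, 55.9 and 76.6 CPM. No mTEChi pool overlapped an mTEClo pool, and the lowest mTEChi value was that of the 12-cell pool. Serpinb9 was called with a log2FC of 1.76 (SE 0.31, adjusted p = 0.0131 by edgeR). Serpinb6b of the same cluster was read at 136.2, 120, 84.1 and 136.9 CPM in mTEChi and 27.8, 22.7 and 44.97 CPM in mTEClo, with a log2FC of 1.68 (SE 0.34, adjusted p = 0.0191). The Serpinb6b call was lost when the mTEChi pool of 4-week females or the mTEClo pool of 4 or 5 weeks was left out. The 6 macrophage and dendritic markers summed to 287.7 to 532.01 CPM in these mTEChi pools and 32.6 to 75.3 CPM in these mTEClo pools, where Itgax was at 0 in 2 of 3, and their part in the differences of Serpinb9 and Serpinb6b was not tested.

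Of the secreted serpins read in many cells, Serpina12 and Serpinc1 rose. Serpina12 (vaspin, an adipokine that inhibits kallikrein; ENSMUSG00000041567, chromosome 12, 104028769 to 104044443) was read at 19.0, 22.3, 26.4 and 28.1 CPM in mTEChi and 0.767, 0.784 and 0.720 CPM in mTEClo. The groups lay far apart and Serpina12 had the lowest adjusted p of the family, with a log2FC of 4.78 (SE 0.37, adjusted p = 0.000839 by edgeR). Serpinc1, antithrombin, the inhibitor of thrombin and factor Xa, was read at 66.9, 47.997, 70.6 and 44.001 CPM in mTEChi and 2.54, 2.62 and 4.87 CPM in mTEClo. Its log2FC was 3.87 (SE 0.42, adjusted p = 0.00267). Since 33.6% of the Serpinc1 windows were shared, nearly all with the antisense gene Zbtb37, the part of Zbtb37 in these counts was not tested.

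The other 6 members called were read in few cells: Serpinb9b (log2FC 7.02, adjusted p = 0.00938), Serpina3a (6.42, 0.0280), Serpinb13 (6.01, 0.0406), Serpina11 (7.14, 0.0443), Serpinb1c (4.04, 0.0471) and Serpinb3c (5.35, 0.0489), all by edgeR. They belong to the members chosen below for their WT mTEChi reads, so that these values describe the choice. Serpinb13, a keratinocyte serpin that inhibits cathepsin L, was read at 9.36, 8.63, 0.125 and 15.3 CPM in the mTEChi pools and 0.0213, 0.284 and 0.0444 CPM in the mTEClo pools, and the 12-cell pool of 5 weeks thus lay within the mTEClo range. The calls of 4 members (Serpinb9, Serpinb9b, Serpina12 and Serpinc1) were made in each of the 7 fits that left out 1 pool. The number of calls was 15 without the 12-cell pool and 5 to 8 when any other pool was left out.

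No member was called lower in adult mTEChi. Serpina3n, an acute-phase antichymotrypsin, was read at 6.93, 2.33, 0.250 and 0.359 CPM in mTEChi and 12.8, 29.9 and 62.3 CPM in mTEClo (a log2FC of -4.03, adjusted p = 0.0505). Serpinb6a was at 138.9, 143.05, 134.2 and 100.2 CPM in mTEChi and 150.7, 212.4 and 149.4 CPM in mTEClo (a log2FC of -0.59, adjusted p = 0.0774). These were the only members with every mTEChi pool below every mTEClo pool, where 9.85% of all genes did so, whereas 20 members had every mTEChi pool above, where 16.1% of all genes did so. Among the latter Serpinb2, the plasminogen activator inhibitor PAI-2, was read at 157.6, 117.2, 175.6 and 122.3 CPM in mTEChi and 34.1, 1.57 and 38.3 CPM in mTEClo (adjusted p = 0.104).

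In newborn mice each of 5 experimental batches held all 3 sorts, and the sorts were compared within batches. Of 61 members 45 passed the filter, and 31 were called: 28 higher in mTEChi, where 21.0% of all genes tested were, and 3 lower, where 11.6% were. For 4 of the members called higher the mTEClo cells held up to 3 reads. The median log2FC was 2.84 for the members tested and 0.10 over all genes. All 10 members called in adult mice were among the 28. The test measured the spread between batches, which may share mice, and 20 of the 31 calls were made whichever batch was left out.

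The called members lower in newborn mTEChi were 3. Serpinf1, the pigment epithelium-derived factor PEDF, was read at 114.9, 132.4, 131.4, 106.1 and 110.8 CPM in the 5 mTEClo batches and 13.3, 18.3, 10.3, 8.45 and 8.01 CPM in mTEChi of the same batches. Its log2FC was -3.34 (SE 0.18, adjusted p = 3.46e-06 by edgeR). Serpine2, protease nexin, an inhibitor of thrombin and plasminogen activators, was read at 130.7, 147.001, 120.3, 111.8 and 166.995 CPM in mTEClo and 8.18, 29.4, 8.00, 20.9 and 9.72 CPM in mTEChi. In both genes the sorts lay apart in every batch, and that of Serpine2 was -3.23 (SE 0.30, adjusted p = 2.63e-05). Serpinh1 (ENSMUSG00000070436, chromosome 7, 99345376 to 99353239) was read at 189.5 to 274.8 CPM in mTEClo and 18.0 to 67.9 CPM in mTEChi, with a log2FC of -3.06 (SE 0.30, adjusted p = 3.04e-05). The newborn mTEClo pool also had 2199 CPM of the 6 cTEC markers, and the part of cells with these markers in the 3 differences was not tested. The 6 fibroblast markers went the other way, with 102.9 CPM in the newborn mTEClo pool and 462.8 CPM in the mTEChi pool.

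Among the intracellular serpins that rose in newborn mTEChi, Serpinb9 was read at 190.9, 205.3, 189.9, 207.5 and 181.5 CPM in the mTEChi batches and 23.7, 20.4, 24.4, 34.3 and 44.1 CPM in mTEClo. Its log2FC was 2.84 (SE 0.18, adjusted p = 4.25e-06 by edgeR). Serpinb6b was read at 98.5, 107.004, 75.8, 114.1 and 122.7 CPM in mTEChi and 8.59, 8.83, 7.15, 17.4 and 19.8 CPM in mTEClo, with a log2FC of 3.23 (SE 0.20, adjusted p = 4.25e-06). The mTEChi batches of both lay above all mTEClo batches by a wide gap. The macrophage and dendritic markers were also higher in the newborn mTEChi pool, at 410.2 CPM against 54.3 CPM in mTEClo, and their part in these differences was not tested. Serpinb13 (5.14 to 21.5 CPM against 0 to 0.198 CPM), Serpinb12 (65.3 to 184.4 CPM against 0.873 to 11.2 CPM) and Serpinb1a, an inhibitor of neutrophil elastase and cathepsin G (132.1 to 251.9 CPM against 14.6 to 64.7 CPM), did not overlap either, with log2FC values of 7.77, 4.80 and 2.58. For Serpinb9e, a copy of Serpinb9, 4.60 CPM in the mTEChi pool stood against 0 reads in mTEClo, at least 122.7-fold higher by a floor of 3 reads over the pool. The mTEChi batches of Serpinb9e were at 13.7, 1.73, 2.00, 0 and 0.276 CPM, so that most of its reads came from 1 batch.

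Among the secreted serpins Serpinc1 rose with 72.9 to 109.4 CPM in mTEChi and 7.15 to 26.1 CPM in mTEClo (a log2FC of 3.08, adjusted p = 0.000501 by edgeR). Serpina12 rose with 18.1 to 25.5 CPM and 0 to 2.62 CPM (log2FC 5.47, adjusted p = 0.00107). Serpini1, neuroserpin, an inhibitor of tissue plasminogen activator in neurons, rose with 41.0 to 57.4 CPM and 4.95 to 24.2 CPM (log2FC 2.19, adjusted p = 0.000378). Of the intracellular clade B serpins, Serpinb2 was called too (log2FC 4.67, adjusted p = 0.0339 by edgeR). Protein C inhibitor Serpina5 was at 3.12 CPM in the mTEChi pool and 0 reads in mTEClo, at least 83.2-fold higher. Of all called members, 14 had every mTEChi batch above every mTEClo batch and 3 every batch below. These counts have no share over all genes beside them. They come from the batches that gave the calls, so that they only describe the calls.

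**Figure D2:**
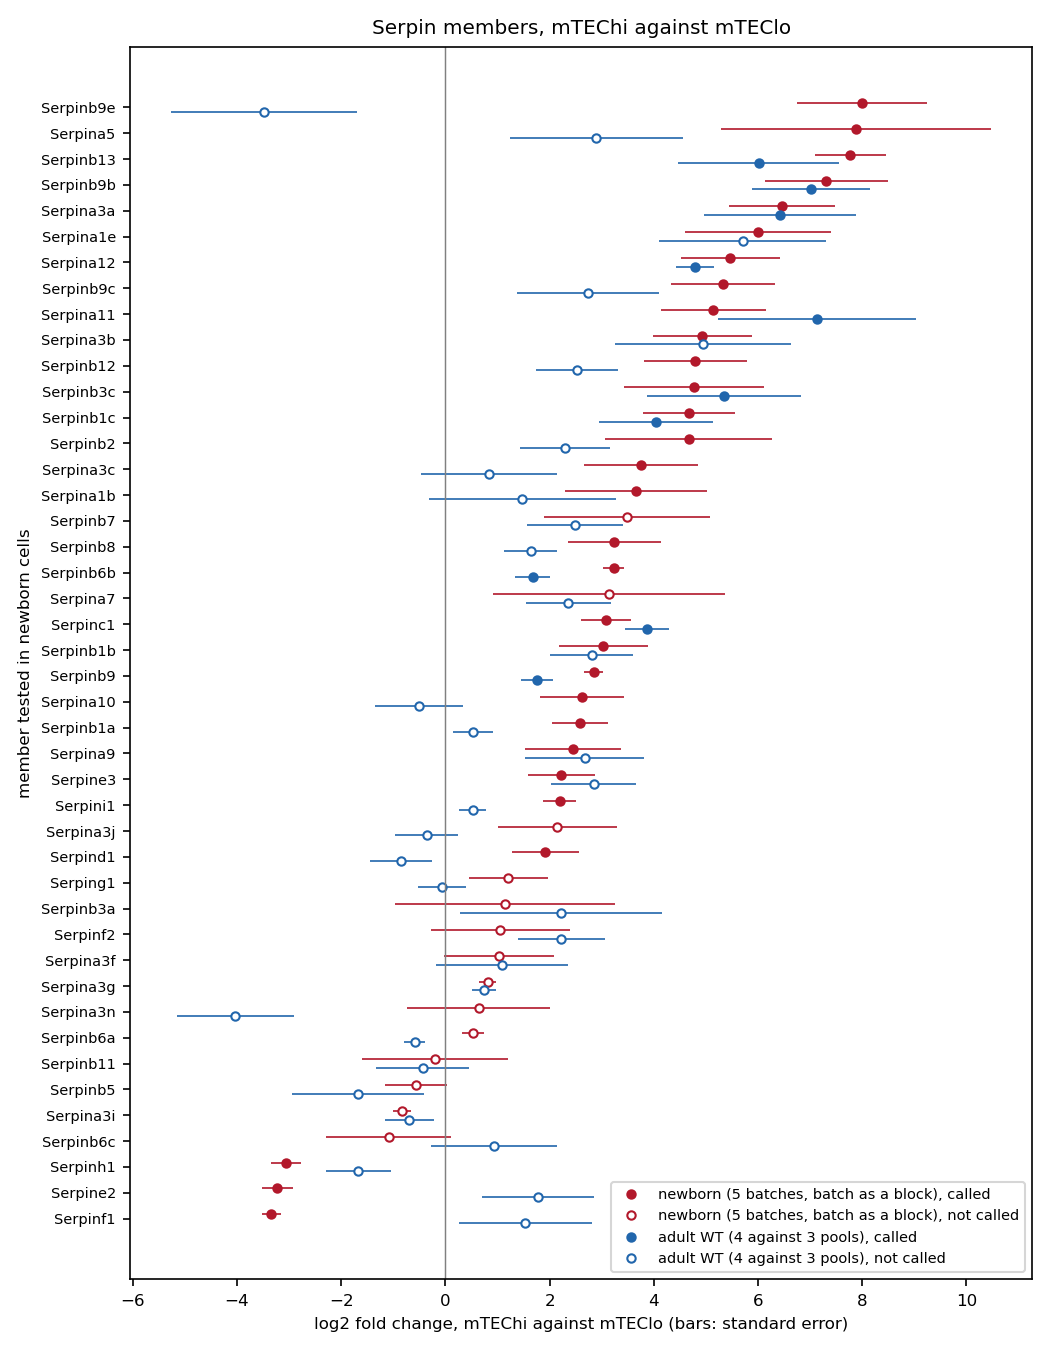
Log2FC of mTEChi over mTEClo (x axis) with its standard error for 44 serpins tested in newborn cells (y axis), newborn in red and adult in blue, filled where called. The newborn points are filled for 27 members on the right and 3 on the left (Serpinf1, Serpine2 and Serpinh1), and the adult points for 10 members on the right.

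In cTECs no member was called against mTEClo of the same age. Adult cTECs formed 1 pool and were assumed to vary like the mTEC pools, and 0 of 60 members (8 at unadjusted p under 0.05, 6 called by DESeq2) and 0.0573% of all genes (0.0423% higher and 0.0149% lower) passed in edgeR. Of the 40148 genes tested, 4102 were at unadjusted p under 0.05 in edgeR. Adult cTECs came from 1 batch without mTEClo cells, so that sort and batch cannot be told apart. Serpina3j was read at 0.907 CPM in adult cTECs and 92.4, 69.2 and 11.7 CPM in adult mTEClo (log2FC -5.90, adjusted p = 0.190). Serpinb12 had 0 reads in adult cTECs and 145.7, 85.3, 15.1 and 82.9 CPM in the adult WT mTEChi pools. Serpinb5, maspin, was read at 35.3 CPM in adult cTECs, which lay inside the 3.51 to 49.8 CPM of the mTEClo pools. Serpinb6c had its highest group level in adult cTECs, at 6.69 CPM, and 0.362, 0.517 and 3.11 CPM in the mTEClo pools. The 6 tuft markers summed to 3860, 3240 and 254.2 CPM in mTEClo of 4, 5 and 8 weeks and 132.6 CPM in adult cTECs. Their part in these differences was not tested.

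Newborn cTECs and mTEClo of the same batches had 0 of 45 members called, where 3.26% of all genes were called, 1.85% higher and 1.41% lower in cTECs. Unadjusted p in edgeR was under 0.05 for 9 of the 45 members and for 5810 of 25850 genes tested. DESeq2 called 3 members. The cathepsin inhibitor Serpina3g passed on p alone, at 116.2, 106.5, 95.8, 94.8 and 130 CPM in cTECs and 78.6, 81.1, 67.9, 88.6 and 59.7 CPM in mTEClo. Its cTEC batches all lay above the mTEClo batches, but with a log2FC of 0.69 (SE 0.16, adjusted p = 0.0307 by edgeR) the fold stayed under 2. Serpine2 was at 58.2 to 71.3 CPM in cTECs and 111.8 to 166.995 CPM in mTEClo (a log2FC of -0.89, adjusted p = 0.0843). Serpina3n was at 16.8 to 86.2 CPM and 0.804 to 8.81 CPM, also without overlap (log2FC 3.10, adjusted p = 0.129). Across both ages 0 members had the 2 cTEC pools above all 11 mTEC pools, as 2.73% of all genes did, and 3 had them below, as 3.42% of all genes did: Serpina16, Serpina3j and the neuronal Serpini1.

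Between newborn and adult mTEChi no member was called (0 of 60, 4 at unadjusted p under 0.05, 0 by DESeq2, 1 with batches as units), with 0% of all genes called. Of the 39971 genes tested, 804 were at unadjusted p under 0.05 in edgeR. The newborn pool lay above all 4 adult pools for 18 members, where 20.1% of all genes did, and below for 6, where 12.3% did. Serpind1, heparin cofactor, was read at 11.2 CPM in newborn mTEChi and 1.71, 5.59, 1.38 and 4.40 CPM in the adult pools (log2FC 1.80). Serpinb6a went the other way, at 91.6 CPM in newborn and 100.2 to 143.05 CPM in adult mTEChi. Between newborn and adult mTEClo no member was called either (0 of 60, 9 at unadjusted p under 0.05, 5 by DESeq2, 15 with batches as units), with 0% of all genes called. Here 3971 of the 39971 genes tested were at unadjusted p under 0.05 in edgeR. The newborn mTEClo pool lay above all 3 adult pools for 16 members, where 34.0% of all genes did, and below for 15, where 19.1% did. Serpinf1 was read at 118.5 CPM in newborn and 2.62, 1.38 and 8.97 CPM in adult mTEClo (log2FC 4.61), and Serpinb9 at 30.7 CPM in newborn and 99.6, 55.9 and 76.6 CPM in adult mTEClo (log2FC -1.42). The newborn mTEClo and mTEChi pools share their batches, and age and batch cannot be told apart.

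The comparison of Aire-KO with WT mTEChi asks which serpins depend on Aire. By pools, with 1 Aire-KO pool against 4 WT pools, 0 of 60 members were called in edgeR (6 at unadjusted p under 0.05, all at adjusted p = 0.925, and 5 called by DESeq2), and 0% of all genes. Of the 39971 genes tested, 1745 were at unadjusted p under 0.05 in edgeR, and the DESeq2 count has no such share beside it. The Aire-KO pool lay below all WT pools for 13 members, where 17.5% of all genes did, and above for 5, where 16.5% did. The median log2FC was -1.20 for the members and -0.16 over all genes. With experimental batches as units, 4 Aire-KO and 9 WT batches, 49 members passed the filter and 9 were called, all lower in Aire-KO, where 7.37% of all genes tested were called, 5.38% lower and 1.99% higher. Each adult batch held cells of 1 group only, so that batch and genotype cannot be told apart, and batches of 1 pool may share mice.

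Serpinb8, an intracellular inhibitor of furin, was read at 2.05, 9.48, 4.90 and 0.838 CPM in the Aire-KO batches and at a lowest of 11.9, a median of 26.7 and a highest of 47.1 CPM in the WT batches. Serping1 was read at 14.0, 6.33, 16.7 and 0.838 CPM in Aire-KO and at 25.8, 39.9 and 45.8 CPM (lowest, median and highest) in WT. For both genes all Aire-KO batches lay below all WT batches, and Aire-KO batch 14 was the lowest. Serpinb8 was called with a log2FC of -2.57 (SE 0.58, adjusted p = 0.0153 by edgeR) and Serping1 with -1.86 (SE 0.53, adjusted p = 0.0426). The Serpinb8 call was lost without Aire-KO batch 13 or 7, and the Serping1 call without any of 9 of the 13 batches, batches 7 and 8 among them.

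The antichymotrypsin-like Serpina3b was read at 0.0765, 0.0188, 0.0643 and 0 CPM in Aire-KO and at 0.121, 1.76 and 7.30 CPM (lowest, median and highest) in WT batches. Its log2FC was -6.00 (SE 1.26, adjusted p = 0.0106 by edgeR), and it was the only member called whichever of the 13 batches was left out. Serpinb13 was read at 0.306, 0, 0.129 and 0 CPM in Aire-KO and at 0.118, 7.22 and 29.4 CPM in WT batches, which overlapped at the low end (log2FC -6.21, adjusted p = 0.0267). Serpinb9b (log2FC -4.39, adjusted p = 0.0357), Serpina3a (-6.28, 0.0280), Serpina1e (-6.04, 0.0296) and Serpina5 (-5.88, 0.0331) were called too, each with its lowest WT batch at or below the highest Aire-KO batch. Serpinb3b, of the squamous cell antigen family, was called too (its reads lay mostly in 1 WT pool, with 1.40 CPM in the 4-week males and 0 to 0.227 CPM in the other WT pools) and had 0 reads in Aire-KO. Except for Serpina1e, Serpinb8 and Serping1, the members called belong to the group chosen for its WT mTEChi reads, and their lower Aire-KO levels describe that choice. Without Aire-KO batch 13, 14, 7 or 8 the number of calls was 2, 4, 3 and 3, and without a WT batch 7 to 12.

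The 5 members that led the adult WT mTEChi levels per kb were not called in Aire-KO batches. Serpinb9 was read at 389.9, 192.05, 246.6 and 171.3 CPM in Aire-KO and at 188.1, 337.6 and 404.3 CPM (lowest, median and highest) in WT batches, which overlapped. Serpinb1a was read at 197.5, 111.14, 92.98 and 65.5 CPM in Aire-KO and at 89.2, 215.7 and 289.9 CPM in WT (log2FC -0.75, adjusted p = 0.176 by edgeR). Serpina3g was read at 29.3, 40.8, 50.3 and 77.2 CPM in Aire-KO and at 60.97, 88.3 and 117.4 CPM in WT (log2FC -0.73, adjusted p = 0.0603), and its Aire-KO pool, at 47.03 CPM, lay below all WT pools. Serpinb2 and Serpinb6b overlapped between the genotypes, with log2FC values of 0.21 and -0.34. Among the secreted serpins called between the sorts, Serpina12 was read at 33.8, 30.7, 44.6 and 19.0 CPM in Aire-KO and at 10.3, 19.0 and 34.0 CPM in WT, and it was not called. Serpinc1 was at 19.6, 32.1, 25.6 and 32.3 CPM in Aire-KO and at 36.3, 48.3 and 66.9 CPM in WT, below in every batch, with a log2FC of -0.76 (adjusted p = 0.0148) that missed the 2-fold criterion. Serpini1 was at 65.8, 45.1, 38.6 and 49.4 CPM in Aire-KO and at 24.2, 29.6 and 47.9 CPM in WT (log2FC 0.64, adjusted p = 0.0574). Cells with at least 3 of 6 genes of a marker list made up other shares of the 2 genotypes: 11.6% of WT and 5.33% of Aire-KO mTEChi for tuft genes, 25.0% and 17.2% for keratinocyte genes, 21.9% and 5.03% for enterocyte and liver genes, 30.6% and 9.17% for microfold genes, and 69.8% and 50.6% for genes of immature mTECs. Fibroblast genes went the other way, at 7.26% and 11.2%, and the summed level of the keratinocyte markers was higher in the Aire-KO pool (367.6 CPM) than in the WT pools (273.6 to 342.04 CPM), although fewer cells carried them. The part of these shares in the lower serpin levels was not tested.

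**Figure D3:**
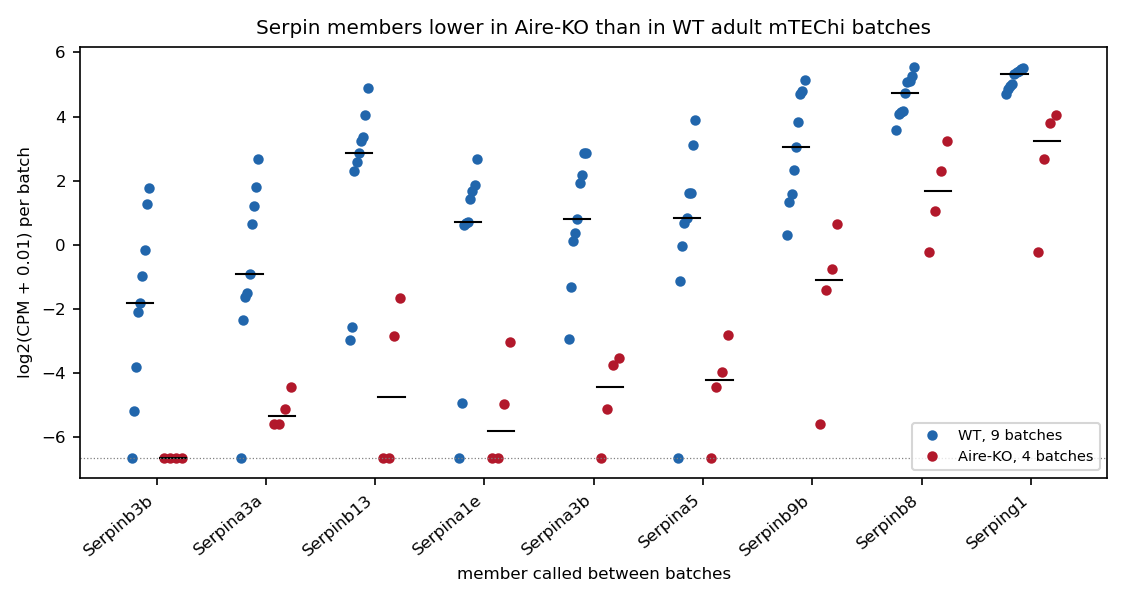
Levels of the 9 serpins called between batches as log2(CPM + 0.01) in the experimental batches of adult mTEChi, 9 WT and 4 Aire-KO, with bars at the medians and a dotted line at 0 reads. For Serpinb8 and Serping1 the 4 Aire-KO batches, 0.838 to 16.7 CPM, lie below the WT batches, as do those of Serpina3b, whereas the batches of Serpinb13, Serpina3a, Serpina1e, Serpina5 and Serpinb9b overlap.

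In mTEClo, Aire-KO against WT gave 0 of 60 members called in edgeR (4 at unadjusted p under 0.05, 3 by DESeq2) and 0% of all genes. Of the 39971 genes tested, 1419 were at unadjusted p under 0.05 in edgeR. The Aire-KO pool lay above all 3 WT pools for 10 members, where 25.9% of all genes did, and below for 12, where 13.6% did. Serpina12 was at 0.131 CPM in Aire-KO and 0.720 to 0.784 CPM in WT mTEClo, and Serpina3j at 3.14 CPM in Aire-KO and 11.7 to 92.4 CPM in WT.

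A group of 16 members was read in few adult WT mTEChi cells: detected in at least 5 but under 10% of them, and with a WT mTEChi level above that of every mTEClo and cTEC group. These rare members were Serpinb13, Serpinb3b, Serpinb3c, Serpinb3d, Serpina16, Serpina1f, Serpina11, Serpina5, Serpina3a, Serpina3b, Serpina3c, Serpina3f, Serpinb1c, Serpinb9b, Serpinb9c and Serpinb6e. The rule used the WT mTEChi levels, so that what follows on WT against other groups is a description. Together they were detected in 38.5% of the 620 adult WT mTEChi cells, in 43.3% of newborn mTEChi cells (74 cells) and in 20.1% of Aire-KO mTEChi cells (68 cells). At least 2 of them were detected in 14.0%, 17.5% and 2.96% of these cells.

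Serpina11 was the most frequent rare member, detected in 48 adult WT mTEChi cells (7.74%, 95% exact interval 5.76 to 10.1) and 9 Aire-KO cells (2.66%, 1.23 to 4.99). Just inside the rule at the other end, Serpina1f was detected in 6 WT cells (0.968%) and in 0 of the Aire-KO cells, which allows a share of up to 0.888% by a floor of 3 cells and 1.09% by the exact interval. Just outside it, by the number or share of cells, were Serpina6 with 4 WT cells (0.645%) and Serpinb7 with 18.2% of WT cells. Serpinb13 was detected in 40 WT cells (6.45%, 4.65 to 8.68), 15 newborn cells (8.77%, 4.99 to 14.1) and 2 Aire-KO cells (0.592%, 0.0717 to 2.12). Serpina3b followed the same pattern, with 27 WT cells (4.35%, 2.89 to 6.27) and 2 Aire-KO cells (0.592%). In contrast, Serpina3f (45 WT and 17 Aire-KO cells, 7.26% and 5.03%) and Serpina3c (29 and 12 cells, 4.68% and 3.55%) had overlapping intervals in the 2 genotypes. Besides Serpina1f, Serpinb3b, Serpina16, Serpina3a and Serpinb3d were in 0 Aire-KO cells, against 7 to 10 WT cells each. Intervals cover counting error only, since cells of 1 sort share their source and reads are not independent molecules.

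Single cells carried much of the signal. Of the adult WT mTEChi reads of Serpinb3d, 59.7% came from 1 cell, and the top cell held 51.6% for Serpinb3b, 50.4% for Serpina3a, 37.5% for Serpina5 and 36.5% for Serpina1f. The reads of Serpinb13 and Serpina11 were spread wider, with 17.9% and 9.18% in the top cell. The top 5 cells held 35.9 to 97.7% of the reads of a rare member.

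**Figure D4:**
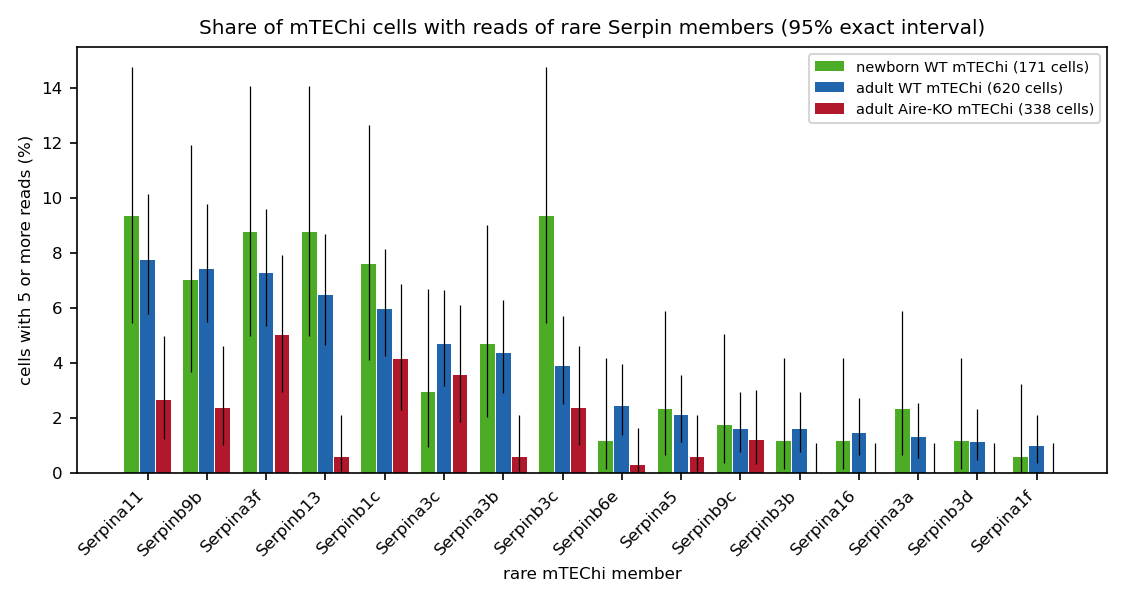
Share of mTEChi cells with 5 or more reads of each of the 16 rare serpins (percent, with 95% exact binomial intervals) in newborn, adult WT and Aire-KO mTEChi. Serpinb13 stands at 8.77%, 6.45% and 0.592%, while the Serpina3f intervals of the adult genotypes overlap.

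Neighbours of a cluster were then read together within cells. For each pair of members in the same cluster, the number of adult WT mTEChi cells with both was divided by the number expected from the share of each alone, which gives 1 for independence. The 31 pairs up to 50 kb apart had a median ratio of 2.79 (quartiles 1.27 to 8.47; 1.38 over 16 pairs without the pool of 4-week males), the 83 pairs at 50 to 200 kb 1.41 and the pairs over 200 kb apart 1.18. The 955 pairs on different chromosomes had a median of 1.04. A ratio over 5 was reached by 10 of the 31 close pairs and by 12 of the 955 pairs on different chromosomes, and 1 close pair (3.23%) and 11.3% of the pairs on different chromosomes were never read in the same cell. Summed over pairs, cells with both were 1.27 times the expected number for close pairs and 1.04 times for different chromosomes, since pairs of broad members dominate the sum. These ratios rest on cells of the same pools and are given with no test.

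Among close pairs the ratios were highest in the cluster of chromosome 12, which holds the Serpina1 and Serpina3 genes: its 18 close pairs had a median of 6.40. The 5 close pairs on chromosome 1 (the Serpinb3, Serpinb13 and Serpinb7 region) had 2.88 and the 7 close pairs on chromosome 13 (the Serpinb1, Serpinb6 and Serpinb9 region) 1.05. The ratio is capped by the share of cells with the commoner member. It cannot rise far above 1 where that member is read in nearly all cells. Serpinb6a, detected in 95.5% of cells, was in all 18 Serpinb6c cells, and Serpinb1a in all 37 Serpinb1c cells, at ratios of 1.05 and 1.19. The medians of the clusters thus also hold how common their members are. Over all pairs of a cluster, however far apart, the median was higher on chromosome 1 (1.78) than on chromosome 12 (1.24) and chromosome 13 (1.05). Serpina16 and Serpina1f, 11.9 kb apart, were in the same 5 cells out of 9 and 6, a ratio of 57.4, in 2 pools and 3 batches. Serpina5 and Serpina3a, 6.59 kb apart, shared 4 of 13 and 8 cells (ratio 23.8, 4 pools and 4 batches). Serpina3a and Serpina3b, 6.10 kb apart, shared 5 of 8 and 27 cells (14.4), and Serpina3b and Serpina3c, 6.84 kb apart, shared 11 of 27 and 29 cells (8.71, 4 pools and 8 batches). None of these pairs rests on 1 batch, and Serpina16, Serpina1f and Serpina5 share no 50-base window with any other gene. The start sites of these pairs are printed above: Serpina3a and Serpina3b hold TATAAA near the start, and Serpina16, Serpina1f, Serpina5 and Serpina3c show none in the printed bases.

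On chromosome 1, Serpinb3a and Serpinb3d, whose start sites are also printed above, lay 25.9 kb apart and shared 4 of 10 and 7 cells (ratio 35.4, 1 pool and 3 batches), but 1.37% of their windows were shared, so that some reads may have been split between these copies. Over the 21 close pairs without any shared window the median was 3.84. The median of the close pairs was 2.10 in the pool of 4-week females (13 pairs), 2.60 in that of 4-week males (29 pairs) and 1.38 in that of 6-week males (14 pairs).

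In Aire-KO mTEChi 15 close pairs could be counted, with a median ratio of 1.47 against 1.00 for 520 pairs on different chromosomes, and in newborn mTEChi 18 close pairs had 1.69 against 1.04. The pairs counted differ between groups, because members with too few cells drop out, and the difference between genotypes was not tested. Each of the 15 close Aire-KO pairs was read together in at least 1 Aire-KO cell. Close pairs with ratios over 2 there included Serpina11 and the germinal centre serpin Serpina9 (all 9 Serpina11 cells among 58 with Serpina9, ratio 5.83). Exons of both overlap the same predicted gene. Others were Serpinb11 and Serpinb7 (21 of 30 and 67 cells, 3.53) and Serpina9 and Serpina12 (55 of the 58 Serpina9 cells, 2.11). Serpinb3c and Serpinb11 (7 of 8 and 30 cells, 9.86) lay 82.8 kb apart and were not a close pair.

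**Figure D5:**
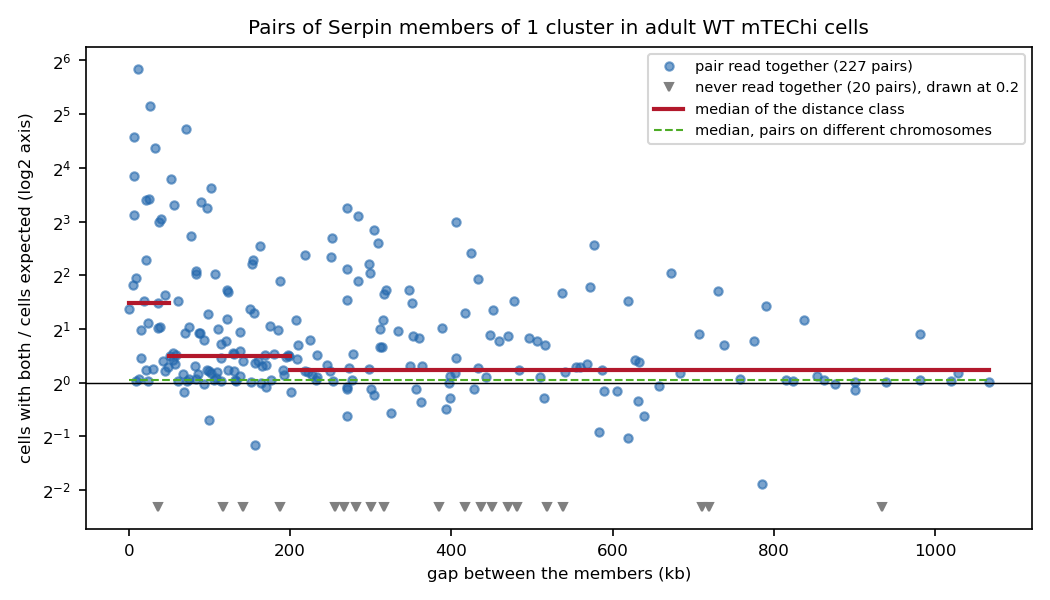
Ratio of cells with both members to the number expected (log2 y axis) against the gap between the genes in kb (x axis) for the same-cluster pairs in adult WT mTEChi, with the 20 pairs never read together drawn at 0.2. Medians fall from 2.79 up to 50 kb to 1.18 over 200 kb, beside 1.04 for pairs on different chromosomes.

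Several serpins went with marker lists of other epithelia within the 977 adult WT mTECs. A cell was taken to carry a list when at least 3 of its 6 genes had 5 or more reads, and these lists were chosen with results of the data known, so that the values are descriptions. In the 25.5% of these cells with keratinocyte genes, Serpinb3a was at 9.80 CPM against 0.298 CPM in the others, and 92.5% of its reads came from them. It was detected in only 10 cells with the list and 2 without it, 9 of them in mTEChi of the 4-week males, and was higher with the list in 4 of 6 pools. Serpinb11 (36.7 against 8.90 CPM), Serpinb2 (173.9 against 62.3 CPM), Serpinb5 (26.6 against 10.9 CPM), Serpinb7 (25.1 against 10.9 CPM) and Serpinb8 (35.7 against 16.4 CPM) were higher there in 5 or 6 of 6 pools. All 6 are clade B genes of the chromosome 1 cluster.

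The 15.7% with enterocyte and liver genes were mTEChi but for 17 mTEClo cells, so that values summed over both sorts also hold the difference between the sorts. In these cells Serpina10, the liver inhibitor of factor Xa that acts with protein Z, was at 43.6 against 3.94 CPM, higher in 5 of 5 pools. Thyroxine-binding globulin Serpina7 was at 122.5 against 23.4 CPM (3 of 5 pools) and Serpinb1a at 405.5 against 140 CPM (5 of 5 pools). In 57 cells with neuroendocrine genes, Serpina3j was at 229.3 against 35.8 CPM and Serpind1 at 20.6 against 3.70 CPM, each in 4 of 4 pools. In 200 cells with tuft genes, most of them mTEClo, Serpinb9e was at 8.83 against 1.28 CPM (4 of 6 pools). Its highest group level was in adult WT mTEClo (7.71 CPM), so that these values also hold the difference between the sorts. In 716 cells with genes of immature mTECs, Serpina3n was at 20.6 against 0.239 CPM, with 99.6% of its reads, and Serpinh1 at 97.6 against 23.3 CPM, each in 5 of 6 pools. These cells were 73.3% of the adult WT mTECs and held 73.6% of their reads on all genes.

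Proteases and partners that serpins bind were counted from a list of 30 genes. In adult mTEChi against mTEClo, 8 were called higher and 3 lower, where 7.54% and 4.13% of all genes were. Cathepsin S (Ctss), a lysosomal protease of antigen processing, was at 201.9 ± 8.15 CPM in mTEChi and 37.2 ± 8.18 CPM in mTEClo (SD, n = 4 and 3 pools), with a log2FC of 2.25 (adjusted p = 0.00118 by edgeR), and tissue plasminogen activator (Plat) rose by 1.75 on the log2 scale (adjusted p = 0.0477). Cathepsin L (Ctsl) fell by 2.23 on the log2 scale (adjusted p = 0.0332), as did the complement proteases C1ra and C1s1, the targets of Serping1, by 3.50 and 3.52. In newborn batches 9 of the 24 tested were called higher and 4 lower, where 21.0% and 11.6% of all genes were, with Ctss (log2FC 3.60) and Ctsl (-1.96) in the same directions. Against mTEClo, adult cTECs had urokinase (Plau) higher at 211.008 CPM against 29.9 ± 8.99 CPM (log2FC 2.85, adjusted p = 0.0482), and newborn cTECs had Ctsl higher (1.46, adjusted p = 0.00216). In Aire-KO against WT mTEChi 0 of 30 were called by pools. By batches 9 were called lower and 0 higher, where 5.38% and 1.99% of all genes were, among them Klk1, Ctsg, Gzma, Gzmb, Cma1 and Mcpt4, secretory proteases of granules and glands, and the serpin clearance receptor Lrp1 (log2FC -1.31, adjusted p = 0.00338).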

How the data were processed

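Per the labels and the methods of the study, the authors trimmed RamDA-seq reads with fastp 0.20.0, aligned them to mm10 with STAR 2.7.3a, removed alignments of MAPQ under 5 and duplicates (SAMtools 1.9, Picard 2.21.1), and counted reads per Ensembl 99 gene with HTSeq 0.11.2 without strand. They kept cells with over 200000 reads on over 8000 genes. The deposited values are raw counts per gene and cell. A further 168 samples are second runs of a cell, and how runs were merged is not given in the sources used here.

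Counts were summed per pool or per experimental batch and sort (Python 3.11.15, pandas 2.3.3). edgeR 4.0.16 (R 4.3.3, TMM, filterByExpr, glmQLFit, glmQLFTest, two-sided, Benjamini-Hochberg) was used for 9 comparisons: 11 mTEC pools (5 residual degrees of freedom, 39971 genes), 13 pools (40148 genes), 15 newborn sums with batch as a block, since each newborn batch held all 3 sorts (25850 genes), and 13 adult mTEChi batches (30902 genes). Numbers in the cell names did not pair samples. Groups of 1 pool were assumed to vary like the others. DESeq2 1.42.0 and limma 3.58.1 were alternatives, with 59 planned settings and 2 added after seeing the data (pairs without shared windows, 4 of 6 list genes). The fits were tested on simulated data. The values of 1 member are not reported here by name, although counts over the family include it.

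Named members were those called at 5 CPM or more (up to 10 per direction), the 5 highest per kb, the rare members and cluster neighbours. Serpinb6c, Serpinb5, Serpina3n and the other members outside these rules were named to describe levels and detection after their values were seen. Members, classes, the 15 marker lists and the 30 protease genes were chosen with earlier results of these data known. GENCODE M21 gave names and positions for 48263 of 48437 genes, and shared 50-base windows stood in for protein identity between members.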

Additional observations from a re-analysis of the deposited data

Results flagged for a closer look

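Of 29 members with enough reads, 1 of the 4 adult WT mTEChi pools stood apart from the others for at least the 4 members given here, where chance alone sets about 1 in 20 such groups apart. The gap to the next pool, as a share of the whole range, was 0.850 for Serpine2, 0.910 for Serpinf1, 0.906 for Serpina5 and 0.833 for Serpinb9. All 4 concern the 12-cell pool of 5 weeks: Serpine2 at 233.2 CPM against 9.48 to 42.95 CPM in the other pools, Serpinf1 at 51.3 against 0.991 to 5.50 CPM, Serpina5 at 23.7 against 0.891 to 3.03 CPM and Serpinb9, lower, at 174.96 against 330.8 to 362.02 CPM. In this pool 1 cell held 99.8% of the Serpinf1, 100% of the Serpina5, 56.8% of the Serpine2 and 23.9% of the Serpinb9 reads. The rate of 1 in 20 does not account for so few cells.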

How the results depend on the processing

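No fold change reversed in any setting. The counts of called members that follow have no share over all genes beside them. DESeq2 called 26 members between adult mTEChi and mTEClo (10 in edgeR), 5 and 3 in the Aire-KO mTEChi and mTEClo pools (0), 5 between newborn and adult mTEClo (0; limma 2), 6 in adult cTECs (0), 3 in newborn cTECs (0) and 16 in the Aire-KO batches (9). With batches as units, 28 members were called between adult sorts, 1 and 15 between newborn and adult mTEChi and mTEClo, and 9 in Aire-KO mTEChi; the cause was not tested. Leaving out 1 pool gave 5 to 15 calls between adult sorts and 0 to 3 in adult cTECs, and leaving out 1 batch 2 to 12 in Aire-KO mTEChi and 24 to 29 between newborn sorts (31). Without batch as a replicate block the newborn sorts gave 22 calls and cTECs 0, and an age and sex block gave 8 between adult sorts. At 1 read, close pairs had a median ratio of 1.82 and all same-cluster pairs 1.12. Thinned cells gave 3.19 and, for different chromosomes, 0.993. Leaving out 1 pool gave 1.38 to 2.78, 1.21 to 1.30 and 1.02 to 1.04 for close, same-cluster and different-chromosome pairs, and pairs without shared windows gave 3.84. The broad class held 10, 14 and 7 members at 10 reads, at 1 read and after thinning. Over settings, single fold changes kept their call in 80.2%, lost it in 17.9% and gained one in 1.91%. Other values were less stable. Counted as moved were 92% of the values for cells carrying a list, 57.4% of detection values, 30.1% of levels and 25% of counts and pairs. Rare members rest on few cells, and 1 pool per group limits the Aire-KO, newborn and cTEC pool comparisons.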
